A study of Mus musculus with 2 samples.

Results

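On mouse chromosome 13, a 400 kb block runs from 65850001 to 66250000 (mm10). Its listed windows gave far fewer captured reads in the testis library labelled Kaiso knockout than in the wildtype testis library. All windows of 100 bp that the authors' table lists in this interval were taken as members, 695 of the 2537435 listed windows. The interval had been picked because several of the longest runs of lower 1 kb bins lie in it, so it was chosen by its knockout and wildtype counts, and its low ratio is a description that was not tested. The series held 1 library from the testis of a C57BL/6 mouse with the genotype Kaiso KO, a generation 3 offspring labelled as a sterile male, and 1 library from the testis of a wildtype C57BL/6 mouse. The allele was not described further, and the sample description of the knockout calls its testis WT while naming knockout mice as the origin. Each knockout value below therefore rests on the genotype label.

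Kaiso, the product of Zbtb33, reads methylated CpGs through its zinc fingers. In the assay, sheared DNA was captured with the methyl-CpG binding domain of MBD2, so a window gives many reads where it holds methylated CpGs and few where it is CpG-poor or unmethylated. Captured DNA also follows the number of copies of a sequence in the genome. A ratio of captured reads cannot tell methylation from copy number without input DNA, which was not analysed here. The block lies in a stretch of predicted genes, noncoding RNA genes and pseudogenes of type 2 vomeronasal receptors, a family of pheromone receptors of sensory neurons that is known for tandem gene copies and many dead copies.

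The knockout library held 98549116 reads and the wildtype library 87710791, and ratios are knockout over wildtype after scaling to these totals. Zbtb33 itself, on chromosome X from 38189793 to 38197046, had 83 knockout and 303 wildtype counts in 16 listed windows (log2 -2.04, 95% interval -2.80 to -1.31), although which part of the gene was deleted is not given. The table lists only windows with an unadjusted p under 0.05 between the libraries. A listed ratio is therefore pushed away from 1, and an unlisted window was not shown to be equal. With 1 library per genotype there is no replicate check, and the exact binomial intervals cover counting error only.

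RefSeq promoters (GRCm38.p6, the assembly of mm10; 250 bases before to 50 after the start) were found for 7 of the 16 annotated genes of the block. They are shown because 3 of them are near copies of each other, and because 2 of them hold listed windows. CpGs, the only sites the capture can read, are in capitals. The first 3 below are near copies of each other, and the next 2 carry listed windows.
Gm17353 (chr13:65896933-65897232, plus strand): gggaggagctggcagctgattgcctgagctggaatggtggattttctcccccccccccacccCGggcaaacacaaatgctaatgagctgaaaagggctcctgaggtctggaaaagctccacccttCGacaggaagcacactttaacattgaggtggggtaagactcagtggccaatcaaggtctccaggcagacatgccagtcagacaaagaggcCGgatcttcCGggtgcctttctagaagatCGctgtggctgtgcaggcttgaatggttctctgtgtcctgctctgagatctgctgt
Gm46425 (chr13:65950339-65950638, plus strand): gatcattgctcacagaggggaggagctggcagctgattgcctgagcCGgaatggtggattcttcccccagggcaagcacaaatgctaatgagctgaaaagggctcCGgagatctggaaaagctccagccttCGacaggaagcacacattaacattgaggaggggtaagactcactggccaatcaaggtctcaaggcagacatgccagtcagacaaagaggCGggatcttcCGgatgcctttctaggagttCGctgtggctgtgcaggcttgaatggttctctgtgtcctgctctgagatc
Gm10324 (chr13:66113203-66113502, plus strand): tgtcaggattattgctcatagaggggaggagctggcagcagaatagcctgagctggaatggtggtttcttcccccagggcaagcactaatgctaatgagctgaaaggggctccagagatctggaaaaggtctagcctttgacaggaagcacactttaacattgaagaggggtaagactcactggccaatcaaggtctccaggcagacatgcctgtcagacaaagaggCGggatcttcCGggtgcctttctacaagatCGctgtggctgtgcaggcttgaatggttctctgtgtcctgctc
Gm40986 (chr13:65863344-65863643, minus strand): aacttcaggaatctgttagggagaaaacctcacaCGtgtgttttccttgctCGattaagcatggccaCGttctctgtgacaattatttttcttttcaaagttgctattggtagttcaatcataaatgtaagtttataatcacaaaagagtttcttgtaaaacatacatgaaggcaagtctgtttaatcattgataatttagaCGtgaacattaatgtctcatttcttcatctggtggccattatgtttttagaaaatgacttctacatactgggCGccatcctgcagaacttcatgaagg
Gm45965 (chr13:66162716-66163015, plus strand): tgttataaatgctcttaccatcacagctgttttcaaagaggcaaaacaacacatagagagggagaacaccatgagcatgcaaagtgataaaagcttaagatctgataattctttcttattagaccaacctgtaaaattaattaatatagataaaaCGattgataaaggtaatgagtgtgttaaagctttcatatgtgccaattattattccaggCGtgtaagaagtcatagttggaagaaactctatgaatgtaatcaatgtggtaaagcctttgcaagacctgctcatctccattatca
The promoters of Gm17353 and Gm46425 were identical at 94.7% of 283 aligned bases, those of Gm46425 and Gm10324 at 93.2% of 293, and those of Gm17353 and Gm10324 at 93.1% of 276. The promoter of the noncoding RNA gene Gm40987 aligned with Gm10324 over 219 bases, of which 80.8% were identical. The 8 promoters of the block held 2 to 6 CpGs each, against a median of 7 over the 32851 promoters of the table. A consensus bound by Kaiso, TCCTGCNA, was searched on both strands and stood in 0 of the 8, against 4.96% of all promoters. The letters CGCG, which cannot overlap that consensus, stood in 0 of the 8, against 38% of all. The 8 include 2 overlapping promoters of Gm32476, which also overlap that of Gm46425 on the other strand. The promoter shown for Gm10324 lies inside the gene, whose annotated span starts at 66110374.

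Near copies of the Gm10324 promoter were confined, among the promoters of the table, to chromosome 13. With at least 200 aligned bases and at least 85% identity, a minimum chosen after the identities above were seen, 10 other genes matched, and 0 of them lay on another chromosome. Besides Gm17353 and Gm46425 they were Gm19428, Gm53057, 2410141K09Rik, Gm46428 and Gm45966 within 400 kb of the block, and Gm7762, Gm31714 and Zfp640 farther out. The nearest in sequence was Gm53057, with 98.9% identity over 283 bases. The whole annotated spans of genes with these promoters were read by place, with no test between them. 2410141K09Rik, to the right of the block, had 136 knockout and 419 wildtype counts (log2 -1.79, -2.40 to -1.22). Gm31714, to the left and outside the flank, had 1839 and 866 (0.92, 0.69 to 1.16), and Zfp640, a zinc finger gene by its symbol, had 87 and 44 (0.81, -0.27 to 2.02). The sources used here do not say how reads that align to several copies were treated, and its part in the values was not tested.

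Summed over the block, the listed windows held 17673 knockout and 49008 wildtype counts, a log2 ratio of -1.64 (-1.69 to -1.59), or 3.12-fold fewer in the knockout library. They cover 17.4% of the length of the block, and the ratio does not speak for the rest. A read is counted in several windows, so these are window counts and not reads. Of the 695 windows, 643 (92.5%) were lower and 52 higher in the knockout library, whereas 43.5% of all listed windows were lower. The median window had 13 knockout and 59 wildtype counts, against 40 knockout and 39 wildtype counts over the whole table. In RPKM, which scales reads to window length and library size, the medians were 1.32 in the knockout and 6.73 in the wildtype library. Thus the wildtype median was above, and the knockout median below, that of all listed windows. The relative methylation score that the authors deposited, on a scale they do not state, had a median of 0.056 in the knockout and 0.309 in the wildtype library, against 0.153 and 0.186 over the table.

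Most windows were far from equal. Of the 695, 407 (58.6%) were at least 4-fold lower on the log2 scale of counts plus 0.5, against 14.8% of all listed windows, and 601 (86.5%) at least 2-fold lower, against 37.8%. In the middle 80% of windows the log2 ratio ranged from -4.69 to -0.81, and its median was -2.37. No window lacked wildtype reads, while 67 (9.64%) had 0 knockout reads, against 1.5% of all listed windows. These 67 windows had 10 to 71 wildtype counts with a median of 15, and 45 of them hold 1 CpG.

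**Figure D1:**
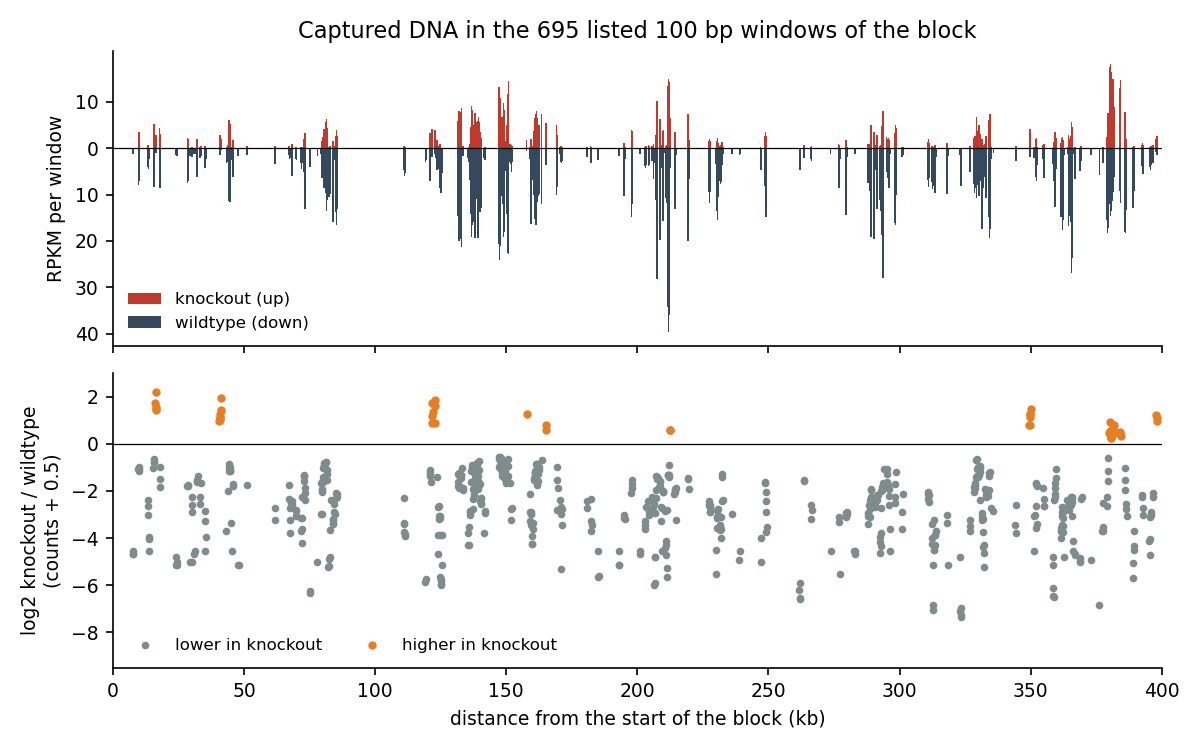
Upper panel: RPKM of each of the 695 listed windows (knockout upwards, wildtype downwards) against distance from the start of the block in kb; lower panel: log2 ratio of knockout over wildtype per window, with 0.5 added to both counts. The 643 lower windows are spread along the block, apart from gaps without listed windows. The 52 higher windows stand in 10 short stretches, and the empty band around 0 is where the table lists no window.

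The block was also read in 1 kb bins, called lower or higher with at least 20 fragments (window counts divided by 4), a 2-fold ratio and an interval that excludes 1. Of 123 bins with enough fragments, 106 (86.2%) were lower, against 25.1% of 592153 bins of the table. Higher bins numbered 4 (3.25%), against 11.2% of the table. Since such bins chose the block, nothing is read from these shares. The lower bins formed 51 runs, of which 12 were at least 3 kb long and covered 56 kb together.

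The longest run, 9 kb from 66053001 to 66062000, held 48 windows, all lower, with averages of 28.3 knockout and 91.3 wildtype counts per window. It contains 3 of the 5 windows with the highest summed count in the block, and another is next to it. The window from 66061901 to 66062000, with 4 CpGs, had 148 knockout and 348 wildtype counts, and that from 66057501 to 66057600, with 5 CpGs, had 99 and 247. These strongly captured windows were 2.64-fold and 2.80-fold lower in the knockout library. No annotated gene overlaps them.

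Runs of 7 kb from 65929001 and of 6 kb from 65985001 and from 66138001 followed. Their averages per window were 21.5 knockout and 74.3 wildtype counts, 40.1 and 109, and 25.4 and 110. The run from 66180001 was 5 kb long (23.6 and 77.1), and those from 66009001 and 66160001 were 4 kb long (36.7 and 96.4; 6.22 and 61.8). The remaining 5 runs, of 3 kb, started at 65973001, 65981001, 66080001, 66097001 and 66214001. Log2 ratios over the 12 runs lay between -3.48, in the run from 66160001, and -1.39, in the run from 65981001. In 11 of the 12 runs every listed window was lower, and in the run from 65973001 it was 17 of 18.

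The 5 windows with the lowest ratio among those with a summed count of at least 40 had 0 knockout counts and 55 to 71 wildtype counts. Of these, 4 are adjacent, from 66173201 to 66173600, and 1 lies at 66162901, all within the pseudogene Gm17514, and each holds 1 or 2 CpGs. Against a floor of 3 counts per window, the window from 66173401 to 66173500, with 71 wildtype counts, was lower in the knockout library by at least 26.6-fold.

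Among lower windows, the difference was deeper at low wildtype counts. The 179 lower windows with at least 100 wildtype counts had a median log2 ratio of -1.84, with medians of 46 knockout and 136 wildtype counts. The 100 lower windows with under 20 wildtype counts had a median of -3.71, with medians of 1 and 13.5. These groups also differed in CpGs per window, with means of 2.99 and 1.35. Over the whole table too, lower windows with 1 CpG had a deeper median, -1.75, than those with 5 or more CpGs, -1.02. With few counts, a window must differ by more to pass the authors' p. The parts of CpG content and of that selection in this contrast were not tested.

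The direction of CpG-dense windows in the block was unlike that in the table, by counts that were not tested. The block was chosen by the counts of its windows, so larger shares of lower windows follow in part from that choice. Over the whole table, windows with 5 or more CpGs were lower in the knockout library in 1.14% of 227655 cases, and their median log2 ratio was 0.66. In the block 36 of 60 such windows (60%) were lower, with a median of -0.99. For windows with 1 CpG the shares were 98.0% of 293 in the block and 62.2% in the table, and for windows with 3 CpGs 95% of 101 and 29.0%. CpG content itself was alike, with a mean of 2.27 CpGs per listed window in the block and 2.32 in the table, and 8.63% and 8.97% of windows with 5 or more.

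By class, windows with 1 CpG had medians of 5 knockout and 41 wildtype counts in the block, against 17 and 29 in the table. Those with 3 CpGs had 21 and 87, against 75 and 51. Those with 5 CpGs had 51 and 146, against 117 and 68. In classes from 1 to 5 CpGs the knockout median of the block was thus below, and its wildtype median above, the value in the table. The comparison changes when only lower windows are set side by side. Lower windows with 1 CpG had medians of 5 knockout and 40 wildtype counts in the block, against 8 and 26 in the table. Lower windows with 5 or more CpGs had 49.5 and 146, against 33 and 58.5, so here both libraries were above the table.

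**Figure D2:**
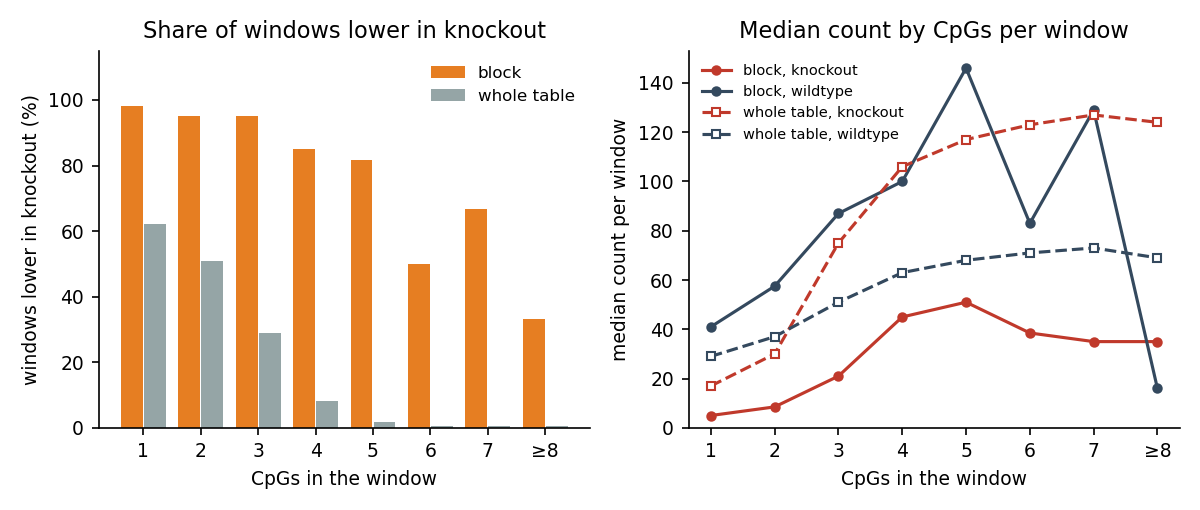
Left: share of listed windows lower in the knockout library (%) by number of CpGs per window, in the block and in the whole table; right: median count per window by the same classes, for knockout and wildtype in the block (filled circles) and in the table (open squares). At 5 CpGs the share is 81.8% in the block and 1.68% in the table.

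The CpG-dense windows of the block were split by their wildtype count. That count is part of the ratio, and each listed window had passed the authors' p. The directions below thus follow in part from the split and are only a description. Those with under 20 wildtype counts, 18 in number, were all higher in the knockout library, with 17 to 41 knockout and 6 to 17 wildtype counts and a median log2 ratio of 1.19. In the table, such weakly captured CpG-dense windows were lower in 0.317% of 44426 cases and had a median of 2.80. Those with at least 20 wildtype counts, 42 in number, were lower in 36 cases (85.7%), with medians of 58 knockout and 138 wildtype counts. Of 183229 such windows in the table, 1.34% were lower, with medians of 128 and 76.

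**Figure D3:**
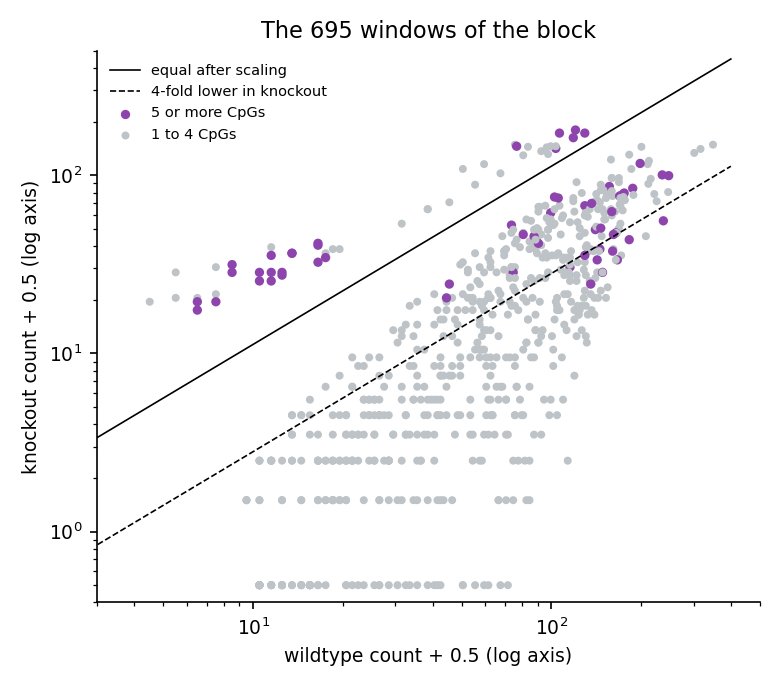
Knockout count against wildtype count of the 695 windows of the block, with 0.5 added to both, on log axes; the solid line marks equal capture after scaling by library reads and the dashed line a 4-fold lower knockout. Windows with 5 or more CpGs (purple) stand above the solid line at low wildtype counts, and mostly below it at high ones, apart from 6 windows of 1 stretch.

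The 52 higher windows were gathered in 10 stretches, joined over gaps of up to 1 kb. The largest, from 66230001 to 66231800, held 15 windows, and none listed within it was lower. Its windows had 70 to 179 knockout and 45 to 129 wildtype counts, with log2 ratios from 0.25 to 0.94 and 0.48 (0.28 to 0.69) over all 15. A second stretch of 4 windows, from 66234001 to 66234400, had 102 to 145 knockout and 67 to 103 wildtype counts (log2 0.42, 0.024 to 0.84). Neither overlaps an annotated gene. The lower windows on both sides had more wildtype counts, with averages of 137 in the bin from 66229001 and 124 in the run from 66235001. The 1 kb bin from 66229001, next to the first of them, had 261 knockout and 683 wildtype counts (-1.56, -2.0 to -1.14).

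Of the other 33 higher windows, 30 had under 20 wildtype counts. They stood in short stretches, such as 7 windows from 65890601 to 65891300 with 19 to 28 knockout and 4 to 12 wildtype counts (log2 1.26, 0.40 to 2.19). In that stretch windows hold up to 12 CpGs, with a mean of 7.29. Another 6 windows, from 66199501 to 66200100 within Gm17514, had 32 to 40 knockout and 11 to 17 wildtype counts (1.14, 0.36 to 1.89). The first of the stretches, from 65866201 to 65866700, had 19 to 28 knockout and 5 to 8 wildtype counts (1.77, 0.53 to 3.03). A stretch of 7 windows from 65971601 to 65973100 had 21 to 41 and 7 to 18 (1.32, 0.58 to 2.12). It holds the window with the highest ratio among those with a summed count of at least 40. That window, from 65972901 to 65973000, had 39 knockout and 11 wildtype counts (log2 1.66).

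The annotation gives 16 genes in the block: 4 protein-coding, 3 lncRNA, 1 snoRNA and 8 pseudogenes. Windows of the block fell in 10 of them, and 7 had at least 20 fragments. All 7 were called lower, with log2 ratios from -4.31 to -1.33, whereas 8.38% of 35587 annotated genes with enough fragments were lower and 14.9% higher. Since the counts of these windows chose the block, nothing is read from this comparison. The windows of Gm45965 are also counted in Gm17514, which spans it. With scaling within CpG classes 5 of the 7 stayed lower, and Gm40986 at -0.55 and Rybp-ps at -0.92 came under 2-fold. Within annotated genes, 241 of 248 windows were lower (log2 -1.79, -1.88 to -1.71), and outside them 402 of 447 (-1.56, -1.62 to -1.5). 

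Among protein-coding genes, Gm10324, from 66110374 to 66123709, had 22 knockout and 252 wildtype counts in 10 windows (log2 -3.69, -5.06 to -2.36). All 10 windows were lower. Gm45965, a gene of 1005 bp from 66162966 to 66163970, lies inside the span of Gm17514 and had 29 knockout and 512 wildtype counts in 8 windows (-4.31, -5.70 to -3.28). Its promoter, shown above with 2 CpGs, was overlapped by 3 windows with 3 knockout and 179 wildtype counts. Gm17353 had 4 and 43 counts in 3 windows, under the minimum. Gm46425 had no listed window.

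Among noncoding RNA genes, Gm40987, from 65978602 to 65990996, had 2309 knockout and 5988 wildtype counts in 54 windows, all lower (log2 -1.54, -1.68 to -1.40). Gm40986 at the left edge had 132 and 296 (-1.33, -1.97 to -0.72). The 4 windows over its promoter shown above had 18 and 135, and 3 of them lie upstream of the gene's start. Gm32476 and the snoRNA LOC115488270 had no listed window.

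Pseudogenes of the vomeronasal receptor family numbered 4. Vmn2r-ps99 had 154 knockout and 614 wildtype counts in 21 windows, all lower (log2 -2.16, -2.74 to -1.67). Vmn2r-ps103 crosses the right edge, and its 4 listed windows, with 2 and 88 counts, all lie outside the block. Vmn2r-ps102 had 6 and 56 counts, under the minimum, and Vmn2r-ps100 had no listed window. Outside the block, 7 Vmn2r genes of chromosome 13, all pseudogenes by symbol, could be called, of which 4 were lower and 0 higher (median -1.28). On other chromosomes 17 of 92 Vmn2r genes, pseudogenes or not, were lower and 14 higher (median 0.40). For the pseudogenes among them it was 3 of 27 lower and 6 higher (median 0.58). Among all annotated genes with enough fragments, 8.38% were lower and 14.9% higher. The difference between these places was not tested.

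Other pseudogenes showed the same direction. Rybp-ps, a transcribed pseudogene of Rybp, a Polycomb-associated protein gene, had 921 knockout and 2478 wildtype counts in 27 windows (log2 -1.60, -1.82 to -1.38), and 26 of them were lower. Gm17514, annotated over 65.5 kb, had 2204 and 7999 in 122 windows, of which 116 were lower (-2.03, -2.17 to -1.89). Gm7822 had 0 knockout and 44 wildtype counts, under the minimum, and Gm21931 had no listed window. No gene of the block has a Zfp symbol, the name of many zinc finger genes, but the symbols of its predicted genes do not say what they encode. Elsewhere on chromosome 13, 5 of 38 genes with a Zfp symbol were lower and 0 higher (median 0.28). On other chromosomes 23 of 362 were lower and 33 higher (median 0.37). Among all annotated genes with enough fragments, 8.38% were lower and 14.9% higher.

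**Figure D4:**
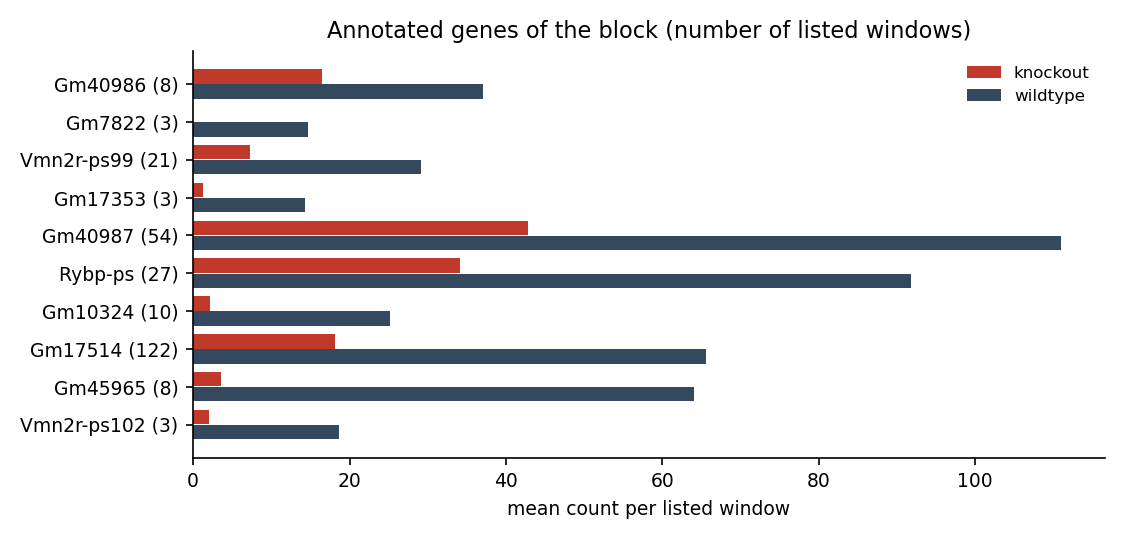
Mean count per listed window in knockout (red) and wildtype (dark) for the 10 annotated genes with listed windows in the block, in their order along the chromosome from top to bottom, with the number of windows in parentheses. Knockout bars are shorter in all 10, for example 42.8 against 111 in Gm40987 and 2.2 against 25.2 in Gm10324.

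The low ratio did not stop at the edges of the block. The 400 kb to the left had 16192 knockout and 28227 wildtype counts (log2 -0.97, -1.03 to -0.91), and the 400 kb to the right 14024 and 30145 (-1.27, -1.33 to -1.21). The rest of chromosome 13 had a log2 ratio of 0.26. Listed windows were denser in the block, at 1.74 per kb, than in the left flank at 1.22 and the right flank at 1.23. Windows with 5 or more CpGs were lower in 36 of 60 cases in the block, in 5 of 39 in the left flank and in 13 of 34 in the right flank. Listed windows without a knockout read made up 9.64% in the block, 4.51% in the left flank and 10.8% in the right flank. Those at least 4-fold lower made up 58.6%, 42.8% and 55.7%, so the right flank was close to the block in both. The last listed window outside the left edge had 6 knockout and 22 wildtype counts, and the first one inside had 0 and 11. The last window inside the right edge had 27 and 12, and the first outside it 0 and 29.

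In 100 kb tiles, 9 adjacent tiles from 65650001 to 66550000 had a log2 ratio of -1.0 or lower, rounded to that digit. The lowest was -2.34 (-2.51 to -2.17), in the tile from 66250001, just right of the block. Within the block the tiles had -1.66, -1.44, -2.10 and -1.48. To the left the tiles from 65450001 and 65550001 had -0.14 and -0.37, and those from 65250001 and 65350001 had 0.98 and 0.44. To the right the decline ended less evenly, with -1.0, -0.15, -0.67 and 0.0072 in the tiles from 66450001 to 66850000. Over the genome, 4744 tiles of 400 kb had at least 200 listed windows, and their log2 ratio had a median of 0.24, with 90% of tiles between -0.16 and 0.56. The block was the lowest of them, followed by its right and left flanks, and then by a tile of chromosome 11 at -0.84. The tiles were laid from the edges of the block, which is thus itself a whole tile, and these ranks use the values that chose the block.

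**Figure D5:**
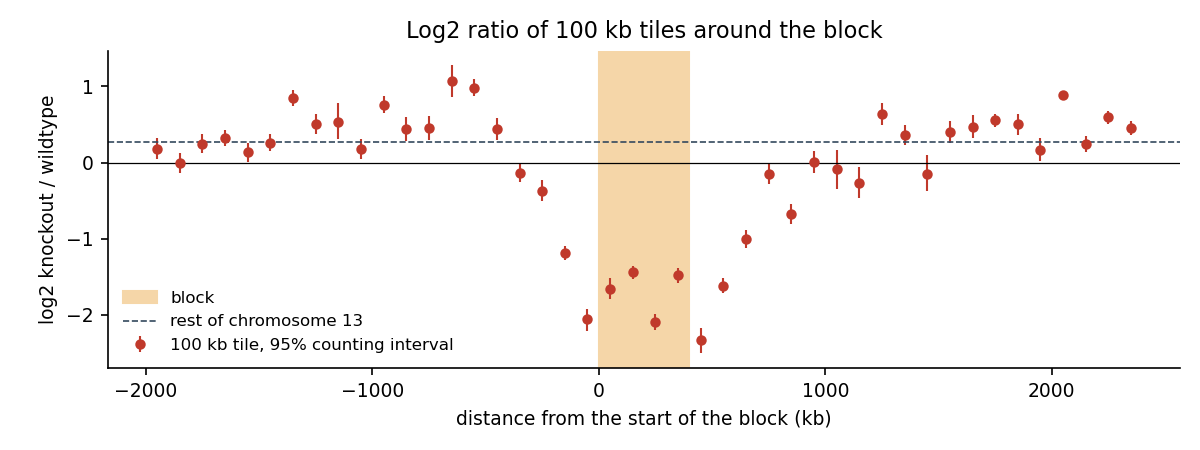
Log2 ratio of knockout over wildtype in 100 kb tiles against distance from the start of the block in kb, with 95% counting intervals; the band marks the block and the dashed line the rest of chromosome 13 at 0.26. The tiles from 200 kb left of the block to 300 kb right of it lie at -1.0 or lower.

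Within the block the ratio varied from place to place. Of 40 tiles of 10 kb, 37 had a listed window, 36 of these had a ratio below 0, and 33 lay below a log2 ratio of -1. The lowest had -3.98 and the only tile above 0 had 0.32. Windows were absent from 25.4 kb between 65935501 and 65960900, a stretch with Gm32476, Vmn2r-ps100 and Gm46425, and from 12.4 kb and 10.6 kb starting at 66099401 and 65901201. Correlation of knockout counts with themselves along the block, over 4000 positions of 100 bp with unlisted ones at 0, was highest at the shortest distance tried, 1 kb (Pearson r 0.294). Beyond 10 kb it reached at most 0.0936, at 51 kb, and wildtype counts reached 0.133 at 81.7 kb and the presence of a listed window 0.108 at 81.8 kb. These are weak values, from which no repeat is read. These positions share a library and are neighbours, and the values are a description.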

How the data were processed

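Methylated DNA of 1 knockout and 1 wildtype testis was captured with the MBD2 domain and sequenced, per the labels' protocols, from fragments sheared to 200 to 400 bp. Bowtie2 2.2.6, edgeR and mm10 were named in the submitters' processing notes. The deposited count is a whole number of reads per 100 bp window, and the authors' RPKM scales it to window length and library size. The authors' relative methylation score and the CpG number of each window were deposited as well. The log2 fold change of the authors' deposited table runs wildtype over knockout; turned round, it placed the knockout 0.13 above the RPKM ratio. All 2537435 windows carry a deposited p-value under 0.05. Another 11 columns of values were not used.

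Library sizes were computed as count over RPKM. Regions were summed over windows, with Clopper-Pearson 95% intervals on window counts divided by 4, computed with Python 3.11.15 and scipy 1.17.1. TMM factors came from edgeR 4.0.16. Windows overlapping a RefSeq gene by any base were its windows. The calling of bins was tested on simulated binomial counts with known changes, which hold counting error only and no spread between animals. The named genes are all annotated genes overlapping the block. Runs of at least 3 bins were named as well. So were windows from among the 5 lowest, highest and most captured, with a summed count of at least 40. The block, the lists and these rules were chosen with earlier results of these data known. The RefSeq table held no gene descriptions, so zinc finger genes were taken by symbol. Other scalings, minimums, folds and bin sizes were tried.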

Additional observations from a re-analysis of the deposited data

How the results depend on the processing

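The log2 ratio of the block, -1.64, stayed below 0 under each alternative tried. It was -1.91 with autosomal counts, -1.51 with the authors' scaling, -2.30 when the median of CpG-dense windows (at least 5 CpGs) was set to 0, -1.31 within CpG classes, -1.59 with windows of a summed count of at least 40, and -1.78 with the block shortened by 50 kb at each edge. The share of lower windows was 95.1% with the CpG-dense median at 0, where it was 69.9% in the table, and 96.7% with shortened edges. Within CpG classes it was 91.1%, against 50.1% in the table. Lower bins, 106 of 123 tested, numbered 81 of 123 with a 3-fold limit and 91 of 123 within CpG classes. The ends of the range over the 13 alternatives tried were 79 of 91 with 2 kb bins and 137 of 164 with 500 bp bins. The shares over the table were not computed for these alternatives. Higher bins, 4 in number, became 2 with autosomal counts, with a 3-fold limit, with 2 kb bins or with 6 window counts per fragment, 1 with a minimum of 40 fragments and 0 with the CpG-dense median at 0. The longest run was 4 kb with 500 bp bins. The difference of the block was -0.67 from its left and -0.37 from its right flank, and -0.76 and -0.37 within CpG classes, an alternative added after the data were seen. The distance of the highest correlation was 1.2 kb with wildtype counts or with listed positions alone. Genes called lower numbered 7 under the other scalings, added after the data were seen, but 5 within CpG classes. Of 84 alternative values for 10 genes, 82 stayed below 0, though Vmn2r-ps102 had only -0.031 at its gene ends. Over 1 kb on each side of both gene ends, Vmn2r-ps99 had 1.10 and Vmn2r-ps103 had 0.17, both of which have higher windows beside them. The cause of other changes was not tested. No paired analysis was possible because each genotype has 1 library.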
